A study of Mus musculus with 36 samples.

Results

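The genes described here encode 9 scaffold proteins of the postsynaptic density: Dlg1, Dlg2, Dlg3, Dlg4, Shank1, Shank2, Shank3, Dlgap1 and Homer1. They were taken by gene name from the deposited count table, and all 9 were found among its 16614 genes, of which 16561 are protein-coding. The study sequenced ribosome-protected fragments (RPFs), the pieces of mRNA that a ribosome shields from nuclease, and RNA from brains of WT C57BL/6 and FMR1 KO mice at postnatal day 5. FMR1 KO mice lack FMRP, an RNA-binding protein, in all cells. RPFs came from the pellet of a sucrose gradient, the place where dense RNA granules with stalled ribosomes are thought to collect, though other material may be there too, and from fraction 5/6, which holds ribosome clusters of the size of polysomes. Each of the 12 groups (WT or FMR1 KO, by pellet, fraction 5/6 or RNA-seq, by standard or low nuclease preparation) had 3 libraries, 36 in all, and 10 brains were used for a preparation. The standard preparation used 10 mM MgCl2 and a stronger nuclease digestion, and the low nuclease preparation used 2.5 mM MgCl2. The 3 replicates of an RPF group carried separate linkers and were pooled before reverse transcription, so a group cannot be told apart from its pool.

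The postsynaptic density is the protein lattice under the membrane of excitatory synapses. Dlg proteins (SAP97, PSD-93, SAP102 and PSD-95) are membrane-associated guanylate kinases that bind glutamate receptors, Dlgap1 (GKAP) links them to the Shank proteins, and Homer1 ties Shank proteins to metabotropic glutamate receptors. Several of these mRNAs are carried into dendrites and are known ligands of FMRP. On the lists of FMRP targets that the study used, Dlg2, Dlg4, Shank1, Shank2, Shank3 and Dlgap1 stand on that of Darnell et al. and Dlg2, Dlg4, Shank1 and Shank2 on that of Maurin et al. A list of another kind, from Shah et al., holds mRNAs whose ribosomes resist run-off, and Dlgap1 is on it. Dlg1, Dlg3 and Homer1 were not found on the 3 lists as read here, which may lack some names of the originals.

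Peaks of RPF coverage, places where ribosomes pile up on an mRNA, fell on 2 members before the start codon. The sequences are shown because they hold the start and the stop of the upstream open reading frame (uORF, an ATG inside the 5′UTR read up to its in-frame stop codon, which in the windows shown is inside the 5′UTR too) at which these peaks lie. Each is a 29-base window of the spliced transcript around a recurring peak, from GENCODE M21 on GRCm38, plus strand, within a 5′UTR exon. Capitals mark the ATG or the TGA of the uORF. The Dlg4 start window belongs to the recurring middle at base 175, seen in 3 libraries, all labelled FMR1 KO. The middle that recurred most in Dlg4, base 186 in 7 libraries with all 3 of the WT pellet, lies inside the uORF. Its window holds neither codon and is not shown.
Dlg4, transcript bases 161 to 189, chr11:70018604-70018632, uORF start: cccagctcATGccccagccccagaactcc
Dlg4, transcript bases 214 to 242, chr11:70018657-70018685, uORF stop: tacccctccTGAgaatcggggtgtgctcc
Dlg3, transcript bases 124 to 152, chrX:100767872-100767900, uORF start: agccATGggtgcggggcagcgtgggggca
Dlg3, transcript bases 220 to 248, chrX:100767968-100767996, uORF stop: cttcttggtcTGAgcagtgcgagtgtgct

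Depth differed by kind of library. Total counts ranged from 112249206 to 147216378 in standard RNA-seq, from 21710393 to 40174168 in the standard pellet and from 6765065 to 33212827 in standard fraction 5/6. Cdk8 alone took between 36.7% and 63.4% of the counts of a standard RPF library, so levels are given as CPM, counts per 1000000 of the total without Cdk8. In 3 low nuclease RNA-seq libraries (WT replicate 2, FMR1 KO replicates 2 and 3), 10 genes held 82.4%, 85.0% and 82.8% of the counts, and these groups enter no main comparison. Fmr1, the targeted gene, was at 62.0, 60.6 and 71.9 CPM in WT RNA-seq and 16.4, 16.7 and 18.1 CPM in FMR1 KO RNA-seq. Pellet libraries held 67.8, 67.1 and 64.6 CPM for WT against 4.93, 4.79 and 4.81 CPM for FMR1 KO. In fraction 5/6 it was at 100.1, 68.6 and 3.17 CPM in the libraries labelled WT and 5.98, 6.82 and 10.7 CPM in those labelled FMR1 KO. In the low nuclease preparation it was at 59.5 to 64.8 CPM (WT) and 6.95 to 8.19 CPM (FMR1 KO) in the pellet, 89.3 to 115.7 and 6.92 to 9.99 CPM in fraction 5/6, and 12.3 to 33.8 and 1.92 to 6.79 CPM in RNA-seq. The library labelled WT fraction 5/6 replicate 3 therefore went against its label. Values that rest on it are given with it, as deposited, and the tests also without it. The 9 neuronal markers, none at 0 in any group, summed to 6986 to 7841 CPM in WT RNA-seq and 7361 to 9004 CPM in the WT pellet.

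The members ranged in WT RNA-seq from percentile 52.1 (Dlg1) to 96.2 (Shank1) of protein-coding genes, and their order by level changed between RNA-seq and RPFs. Together they made up 0.293% to 0.330% of WT RNA-seq counts without Cdk8 and 0.086% to 0.095% of WT pellet counts. In CPM per kilobase of exon, Shank1 at 72.1 ± 4.11 (SD, n = 3) and Dlg4 at 64.2 ± 4.98 led WT RNA-seq, apart by more than the SD of either. Dlg2 at 30.0 ± 0.440, Dlg3 at 25.6 ± 5.27, Shank3 at 25.2 ± 1.05 and Shank2 at 24.0 ± 4.02 followed, within their spread of each other for the last 3. Dlgap1 at 15.3 ± 0.454, Homer1 at 7.80 ± 0.601 and Dlg1 at 4.61 ± 0.439 closed the order.
In the WT pellet, in CPM per kilobase of coding sequence, Dlg2 led at 92.0 ± 13.3, ahead of Dlg3 at 55.7 ± 2.08 and Dlg4 at 38.7 ± 6.48. Dlgap1 at 22.9 ± 1.76 and Homer1 at 22.1 ± 1.67 did not differ beyond their spread. Shank2 at 15.8 ± 1.37, Shank1 at 12.6 ± 0.990, Dlg1 at 11.9 ± 2.16 and Shank3 at 7.30 ± 0.687 came last. Among 16561 protein-coding genes, Shank1 stood at percentile 96.2 in RNA-seq and 67.1 in the pellet, and Shank3 at 87.1 and 56.5, while Dlg2 stood at 89.4 and 94.1. A shift in rank also carries the change of length, from exon to coding sequence. These lengths are 10.5 and 6.50 kilobases for Shank1 and 16.3 and 3.22 for Dlg2. Homer1 rose from percentile 64.1 to 77.4, although its occupancy, given below, was lower than that of the typical gene.

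**Figure D1:**
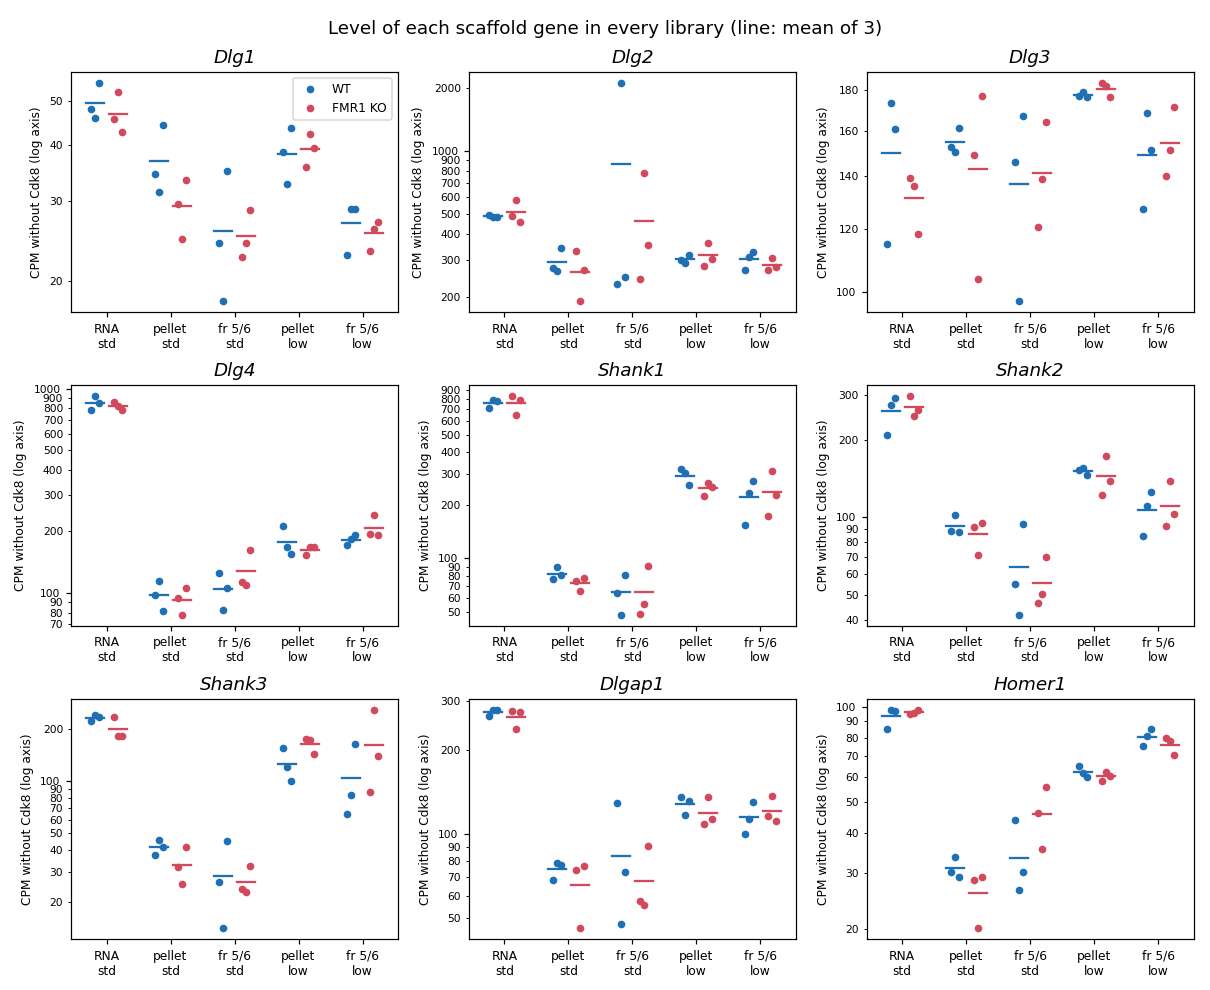
Levels of the 9 members in CPM without Cdk8, on log axes with their own range for each gene, with 1 point for each library and a line at the mean of 3, for the standard (std) groups and the low nuclease RPF groups (fr 5/6 is fraction 5/6). Dlg4 and Shank1 sit between 651 and 918 CPM in standard RNA-seq and between 65.3 and 114 CPM in the standard pellet, and 1 WT fraction 5/6 library has Dlg2 at 2111 CPM.

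Occupancy, the RPFs of the pellet relative to RNA-seq, asks how densely an mRNA is loaded with the ribosomes of the pellet. In WT, 6 members were lower in the pellet than the typical gene and 3 were higher, against 34.8% and 31.7% of the 16345 genes tested (edgeR quasi-likelihood test, Benjamini-Hochberg adjusted p below 0.05). The members' median log2 difference was -0.44 and that of all genes tested was -0.11. In FMR1 KO, 6 were lower and 2 higher, against 33.8% and 32.9% of genes, with medians of -0.76 and -0.03. These directions are relative to other genes, because values were scaled by TMM, which sets the typical gene near 0. With library size alone, Cdk8 included, the median of all genes moved to -2.13 in WT and -2.32 in FMR1 KO, and every member was then below 0, Dlg1, Dlg2 and Dlg3 reversing their sign. Under TMM, library size alone and DESeq2's size factors, 3 members stood above the median of all genes.

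Among the Dlg genes, Dlg4 (PSD-95) stood apart. Its level was 786, 918 and 848 CPM in WT RNA-seq and 97.2, 114 and 81.5 CPM in the WT pellet. All RNA-seq libraries were far above all pellet libraries, and occupancy was lower by 3.95-fold, a log2 difference of -1.98 ± 0.12 (SE, adjusted p = 1.18e-07). In FMR1 KO the levels were 862, 827 and 783 CPM against 94.6, 78.1 and 105 CPM, with a log2 difference of -2.01 ± 0.12 (adjusted p = 1.15e-07).
Dlg3 (SAP102), the form most used at young synapses, had 115, 174 and 161 CPM in WT RNA-seq and 153, 151 and 161 CPM in the WT pellet. These levels overlapped, and since the typical gene was lower in the pellet on that scale (median log2 ratio -1.23), the scaled log2 difference was 1.20 ± 0.16 (adjusted p = 4.34e-05), which reversed to -0.83 with library size alone. In FMR1 KO Dlg3 was at 139.5, 136 and 118 CPM against 149, 104 and 177 CPM, a scaled difference of 1.25 ± 0.16 (adjusted p = 3.44e-05), which reversed to -1.0 with library size alone. Against low nuclease RNA-seq without the 3 libraries dominated by 10 genes, an alternative chosen after seeing the data, Dlg3 had 0.64 in WT (adjusted p = 0.0076) and 0.30 in FMR1 KO (adjusted p = 0.232).
Dlg1 (SAP97), which traffics AMPA receptors, was at 47.9, 45.8 and 54.8 CPM in WT RNA-seq and 34.5, 31.5 and 44.3 CPM in the WT pellet, so its levels in the pellet were the lower ones. Its scaled log2 difference was 0.74 ± 0.17 (adjusted p = 0.00239), reversed to -1.31 with library size alone. In FMR1 KO it was 0.46 ± 0.17 (adjusted p = 0.0304), reversed to -1.83, and that call was lost without any FMR1 KO pellet library or without FMR1 KO RNA-seq replicate 1 or 3 (adjusted p 0.0501 to 0.0972).
Dlg2 (PSD-93) was at 496, 483 and 485 CPM in WT RNA-seq and 276, 267 and 345 CPM in the WT pellet, again lower in the pellet as a level. Its scaled log2 difference was 0.44 ± 0.18 (adjusted p = 0.0432), reversed to -1.60 with library size alone, and in FMR1 KO it was 0.18 ± 0.17 (adjusted p = 0.392). The WT call of Dlg2 was lost without WT pellet replicate 1 or 3, any WT RNA-seq library, FMR1 KO pellet replicate 2 or 3 or FMR1 KO RNA-seq replicate 1 (adjusted p 0.0511 to 0.223). That call was also lost with replicate number added to the model as a block, and with Cdk8 left out.

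The Shank genes, whose proteins form the deeper layer of the scaffold, were all lower in occupancy than the typical gene. Shank1 was at 709, 789 and 775 CPM in WT RNA-seq and 76.3, 89.0 and 80.6 CPM in the WT pellet. The groups were far from overlapping, and occupancy was lower by 4.17-fold (log2 difference -2.06 ± 0.13, adjusted p = 1.36e-07), and by 4.67-fold in FMR1 KO (-2.22 ± 0.13, adjusted p = 9.25e-08), where Shank1 was at 827, 651 and 786 CPM in RNA-seq and 74.4, 65.3 and 77.1 CPM in the pellet.
Shank3, whose loss causes Phelan-McDermid syndrome in people, was at 221, 239 and 234 CPM in WT RNA-seq and 37.7, 45.5 and 41.6 CPM in the WT pellet. Its occupancy was lower by 2.51-fold in WT (-1.33 ± 0.12, adjusted p = 2.6e-06) and 2.75-fold in FMR1 KO (-1.46 ± 0.12, adjusted p = 1.31e-06).
Shank2 was at 209.7, 274 and 292 CPM in WT RNA-seq and 88.1, 101.8 and 87.7 CPM in the WT pellet, the smallest fall of the 3 Shank genes. The scaled difference was -0.33 ± 0.12 in WT (adjusted p = 0.0319) and -0.49 ± 0.12 in FMR1 KO (adjusted p = 0.00426). The WT call of Shank2 was lost without WT pellet replicate 1 or WT RNA-seq replicate 2 or 3 (adjusted p 0.0586 to 0.123).

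Dlgap1, the linker, was at 264, 278 and 277 CPM in WT RNA-seq and 68.3, 78.9 and 77.4 CPM in the WT pellet. Its occupancy was lower in both genotypes, by -0.71 ± 0.10 in WT (adjusted p = 6.51e-05) and -0.87 ± 0.10 in FMR1 KO (adjusted p = 1.41e-05). Homer1 was at 85.1, 97.9 and 97.2 CPM in WT RNA-seq and 30.3, 33.6 and 29.1 CPM in the WT pellet. Its scaled difference was -0.44 ± 0.08 in WT (adjusted p = 0.000508) and -0.76 ± 0.08 in FMR1 KO (adjusted p = 8.56e-06).

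**Figure D2:**
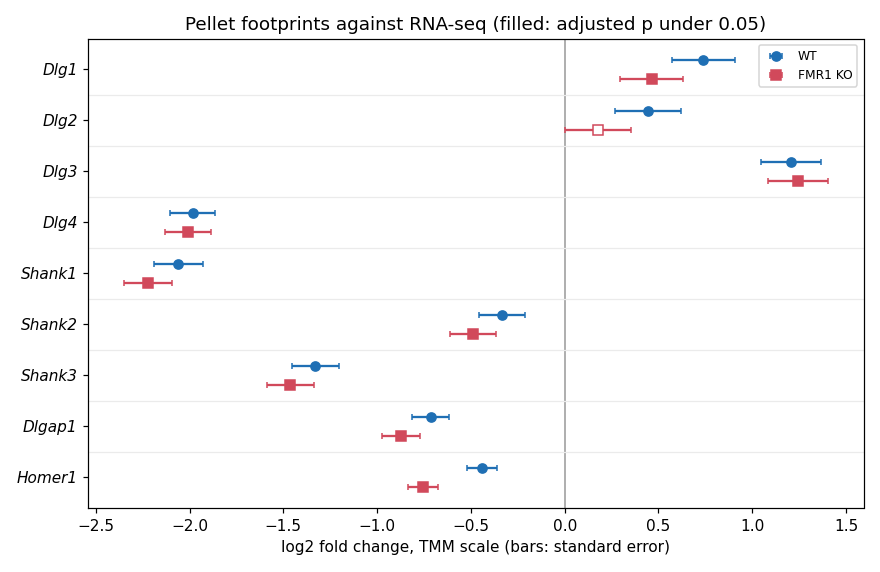
Log2 difference of pellet RPFs against RNA-seq for each member in WT and FMR1 KO, scaled by TMM, with bars of 1 SE and filled symbols for adjusted p below 0.05. Dlg4 and Shank1 lie between -1.98 and -2.22 in both genotypes and Dlg3 at 1.20 and 1.25, while the positive values of Dlg1, Dlg2 and Dlg3 turn negative with library size alone.

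Some RNA of other cell types moved with this comparison. On this scale of CPM the typical gene itself had a median log2 ratio of -1.23 between the WT pellet and WT RNA-seq. The 6 oligodendrocyte lineage markers summed to 525 to 814 CPM in WT RNA-seq and 106 to 149 CPM in the WT pellet, and the 5 erythroid markers to 237 to 551 CPM and 7.30 to 19.2 CPM, with none of either list at 0 in a group. The 6 astrocyte and radial glia markers overlapped (728 to 1169.7 CPM and 844 to 1165 CPM), the 6 microglial markers summed to 178 to 192 CPM and 109.8 to 116 CPM, and the 5 endothelial markers to 11.9 to 16.1 CPM and 3.81 to 5.37 CPM. The log2 ratios of the median sums were -2.04 for oligodendrocyte lineage and -4.89 for erythroid markers, further below 0 than the typical gene, -1.38 for endothelial markers, and -0.74 for microglial and -0.23 for astrocyte and radial glia markers, less far below 0. In FMR1 KO the typical gene had -1.17. There the ratios were -2.71 for oligodendrocyte lineage and -5.91 for erythroid markers, -0.78 for endothelial, -0.52 for microglial and 0.19 for astrocyte and radial glia markers. The part of these cell types in the members' values was not tested.

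Of the members, the 3 Shank genes had the coding sequences richest in GC. GC content was 64.6% in Shank3, 63.7% in Shank1, 58.9% in Shank2, 56.5% in Dlgap1, 56.4% in Dlg4 and 53.7% in Dlg3, and 46.5% in Homer1, 46.3% in Dlg2 and 45.5% in Dlg1, against a median of 53.2% over 15929 protein-coding genes. The coding sequences of Shank1, Shank2 and Shank3 are 6474, 5523 and 5415 nt long, against a median of 1383 nt. The part of GC content or length in occupancy was not tested.

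In fraction 5/6, too, Shank1, Shank3 and Dlg4 were the members furthest below RNA-seq. In WT, 5 members were lower relative to RNA-seq and 2 higher, against 30.4% and 31.0% of 16372 genes. In FMR1 KO 5 were lower and 1 higher, against 29.9% and 27.9%. Shank1 was at 64.1, 48.1 and 81.0 CPM in WT fraction 5/6, all below its RNA-seq values, with a log2 difference of -2.32 ± 0.16 (adjusted p = 5.58e-07), and -2.67 ± 0.16 in FMR1 KO (adjusted p = 2.99e-07). Dlg4 at 125, 82.5 and 106 CPM differed by -1.79 ± 0.14 (adjusted p = 1.58e-06) and Shank3 at 26.1, 14.2 and 44.9 CPM by -1.84 ± 0.25 (adjusted p = 7.75e-05). Shank2 differed by -0.80 ± 0.21 in WT (adjusted p = 0.00594) and -1.38 ± 0.21 in FMR1 KO (adjusted p = 0.000181). Without WT fraction 5/6 replicate 3, the WT values were -2.44 for Shank1, -1.74 for Dlg4, -2.25 for Shank3 and -1.09 for Shank2, and 2 members were higher and 4 lower, against 30.1% and 32.3% of 16498 genes.
Dlg3 was above the typical gene by 1.09 ± 0.18 in WT (adjusted p = 0.000252) and 1.02 ± 0.18 in FMR1 KO (adjusted p = 0.000459), reversed to -1.15 and -0.79 with library size alone. Homer1 at 43.9, 26.5 and 30.1 CPM in WT did not pass (log2 difference -0.25 ± 0.16, adjusted p = 0.204), nor did Dlg1 at 24.3, 18.05 and 35.0 CPM (0.29 ± 0.17, adjusted p = 0.163). Without WT fraction 5/6 replicate 3, the WT values were 1.00 for Dlg3 (adjusted p = 0.000704), -0.12 for Homer1 (adjusted p = 0.504) and 0.09 for Dlg1 (adjusted p = 0.637).
Dlg2 rested on a single library. It was at 233, 2111 and 249 CPM in WT fraction 5/6 and 246, 788 and 357 CPM in FMR1 KO fraction 5/6, where replicate 2 of each genotype was the highest, with 18599 and 10394 counts. The WT log2 difference of 2.37 ± 0.88 (adjusted p = 0.0367) became 0.04 (adjusted p = 0.937) without WT fraction 5/6 replicate 2, and was reversed to -0.40 with library size alone. Without WT fraction 5/6 replicate 3 it was 2.84 (adjusted p = 0.0111). It also lost its call without any 1 WT RNA-seq library (adjusted p 0.0852 to 0.0888). The peak list of that WT library held no Dlg2 peak.
Dlgap1 was at 129, 47.5 and 73.1 CPM in WT, with a difference of -0.53 ± 0.20 (adjusted p = 0.0349) that lost its call without WT fraction 5/6 replicate 2 or 3, any WT RNA-seq library or FMR1 KO RNA-seq replicate 1 or 3 (adjusted p 0.0522 to 0.119, and -0.42 with 0.0974 without WT fraction 5/6 replicate 3).

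Enrichment, the RPFs of the pellet relative to fraction 5/6, asks whether an mRNA sits more in the pellet than with the lighter ribosome clusters. In the standard preparation no member passed in WT or in FMR1 KO, against 0.00732% and 0.0% of the 13664 genes tested. At an unadjusted p below 0.05 there were 1604 genes with 4 members in WT and 3578 genes with 6 members in FMR1 KO, and DESeq2 called 3 members in FMR1 KO (Shank1 and Shank2 higher, Homer1 lower) among 1539 of 13664 genes (11.3%). The Shank genes had the highest values with Dlg1. Dlg2 had the lowest, -1.84 in WT and -0.54 in FMR1 KO, with the spread between fraction 5/6 libraries given above. Shank2 was at 88.1, 101.8 and 87.7 CPM in the WT pellet against 55.2, 41.9 and 94.5 CPM in WT fraction 5/6, where the third library, the one that goes against its label, was inside the range of the pellet. Its log2 difference was 0.56 ± 0.19 (adjusted p = 0.409), and 1.00 ± 0.19 (adjusted p = 0.0788) in FMR1 KO, where the pellet had 91.7, 71.7 and 95.4 CPM and fraction 5/6 had 46.3, 50.2 and 70.0 CPM.

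Without the library labelled WT fraction 5/6 replicate 3, 4 members passed in WT, all higher in the pellet, against 10.4% of 13950 genes called higher and 3.28% called lower. They were Shank3 with a log2 difference of 1.03 (adjusted p = 0.00141), Shank2 with 0.86 (adjusted p = 0.000899), Dlg1 with 0.75 (adjusted p = 0.0394) and Shank1 with 0.48 (adjusted p = 0.0429). In FMR1 KO, whose own libraries stayed the same, 3 members were then higher and 1 lower, against 10.9% and 3.43% of genes. These were Shank2 with 0.98 (adjusted p = 0.000192), Shank3 with 0.65 (adjusted p = 0.00716), Shank1 with 0.54 (adjusted p = 0.017) and Homer1 with -0.51 (adjusted p = 0.0269). Leaving out WT fraction 5/6 replicate 1 instead called Shank2 (adjusted p = 0.0375) and Shank1 (adjusted p = 0.0452) in FMR1 KO. Over all left-out settings, 0.0% to 14.4% of all genes were called in FMR1 KO, so these calls alone say little about the members. The 4 groups share 1 estimate of the spread, so a library of WT also moves the p-values of FMR1 KO. Dlg4 was at 97.2, 114 and 81.5 CPM in the WT pellet and 125, 82.5 and 106 CPM in fraction 5/6, which overlapped, with a log2 difference of -0.09 ± 0.12 (adjusted p = 0.75), or -0.14 (adjusted p = 0.476) without that library.

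**Figure D3:**
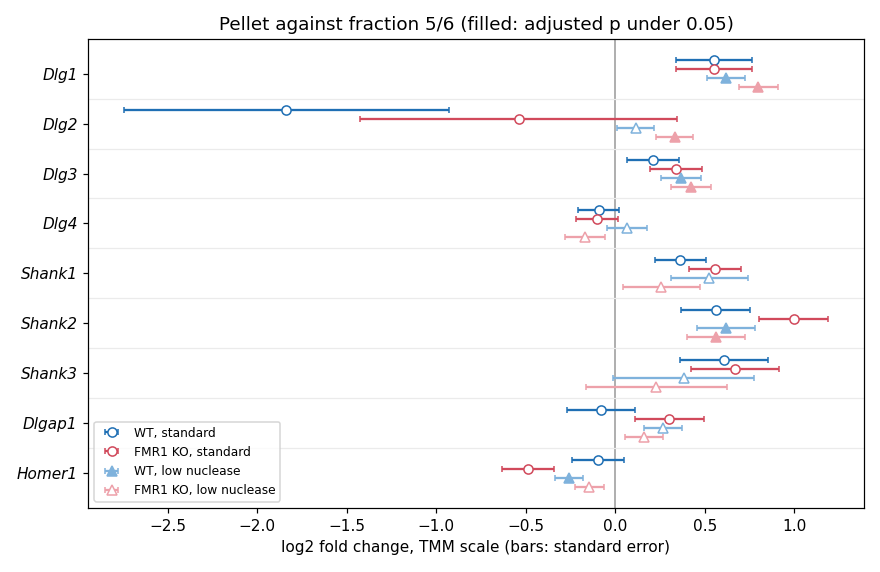
Log2 difference of pellet against fraction 5/6 for each member by genotype and preparation, scaled by TMM, with bars of 1 SE and filled symbols for adjusted p below 0.05. Shank2 lies between 0.56 and 1.00 in all 4 comparisons, and the wide bars of Dlg2 belong to the standard preparation.

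In the low nuclease preparation Dlg1, Dlg3 and Shank2 were higher in the pellet than in fraction 5/6 in both genotypes. In WT, 3 members were higher in the pellet and 1 lower, against 13.5% and 12.9% of the 15895 genes tested. With library size alone, 1 was higher (Dlg1, 0.51) and 1 lower (Homer1, -0.37), among 4908 genes called. Dlg1 was at 38.5, 32.8 and 43.5 CPM in the pellet and 22.9, 28.8 and 28.9 CPM in fraction 5/6, without overlap, a log2 difference of 0.62 ± 0.11 (adjusted p = 0.00371). Shank2 was at 153, 156 and 146 CPM against 84.8, 110.3 and 125 CPM, also without overlap (0.62 ± 0.16, adjusted p = 0.0209). Dlg3 differed by 0.37 ± 0.11 (adjusted p = 0.037) and Homer1, at 65.0, 61.7 and 60.1 CPM against 75.5, 80.8 and 85.1 CPM, by -0.26 ± 0.08 (adjusted p = 0.0347).
In FMR1 KO, 4 members were higher and none lower, against 12.3% and 16.4% of genes. With library size alone, 1 was higher (Dlg1, 0.61) and 1 lower (Homer1, -0.33), among 5776 genes called. Dlg1 differed by 0.80 ± 0.11 (adjusted p = 0.0015), Shank2 by 0.56 ± 0.16 (adjusted p = 0.0274), Dlg3 by 0.42 ± 0.11 (adjusted p = 0.0199) and Dlg2 by 0.33 ± 0.10 (adjusted p = 0.0361). Dlg1 passed in both genotypes with any 1 library left out. Over all left-out settings, which also drop 1 replicate from every group, the members called fell to as few as 0 in each genotype. In WT, Dlg3 lost its call without any WT pellet library, WT fraction 5/6 replicate 1 or 3 or FMR1 KO fraction 5/6 replicate 2 (adjusted p up to 0.137), Shank2 without WT pellet replicate 2 or 3 or WT fraction 5/6 replicate 1 (up to 0.0795), and Homer1 without any WT library or FMR1 KO fraction 5/6 replicate 2 (up to 0.108). In FMR1 KO, Dlg2 lost its call without FMR1 KO pellet replicate 2, WT pellet replicate 2 or any FMR1 KO fraction 5/6 library (up to 0.132), Dlg3 without FMR1 KO pellet replicate 1 or fraction 5/6 replicate 1 or 2 (up to 0.0638), and Shank2 without FMR1 KO pellet replicate 2 or fraction 5/6 replicate 1 or 3 (up to 0.0991).

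Loss of FMRP gave no member call in RNA-seq, pellet or fraction 5/6. In bulk tissue of this kind, fewer cells of a type and less RNA per cell cannot be told apart between genotypes. Against WT, 0 members passed in RNA-seq (0.0736% of 16307 genes did, and 421 genes with 0 members had an unadjusted p below 0.05), 0 in the pellet (0.015% of 13356 genes, 707 genes with 2 members unadjusted) and 0 in fraction 5/6 (0.0% of 13062 genes, 590 genes with 0 members unadjusted). DESeq2 also called no member in these 3 comparisons. In RNA-seq the log2 differences ran from -0.19 ± 0.12 for Shank3 to 0.10 ± 0.13 for Dlg2. Shank3 was at 221, 239 and 234 CPM in WT RNA-seq and 233, 182 and 182 CPM in FMR1 KO RNA-seq, so the groups overlapped.
In the pellet all 9 members had values below 0, with a median of -0.15 against 0.00 for all genes, whereas in the low nuclease pellet 6 of the 9 were above 0, with a median of 0.06 against 0.00. Homer1 was at 30.3, 33.6 and 29.1 CPM in WT and 28.5, 20.1 and 29.1 CPM in FMR1 KO, with a log2 difference of -0.23 ± 0.07 (unadjusted p = 0.022, adjusted p = 0.867). Shank3 was at 37.7, 45.5 and 41.6 CPM and 31.9, 25.4 and 41.8 CPM, which overlapped, with -0.30 ± 0.12 (unadjusted p = 0.037, adjusted p = 0.867). Dlg4, at 97.2, 114 and 81.5 CPM against 94.6, 78.1 and 105 CPM, had -0.02 ± 0.11.
The difference in occupancy between genotypes was called for 0 members, against 0.0673% of 16345 genes. It ran from -0.31 ± 0.11 for Homer1 (unadjusted p = 0.019, adjusted p = 0.745) to 0.04 ± 0.22 for Dlg3. The difference in enrichment was also called for 0 members, against 0.0% of 13664 genes, 770 of which had an unadjusted p below 0.05. The largest was 1.30 for Dlg2, whose WT fraction 5/6 level was far higher in replicate 2 than in the others. Shank2 had 0.44 ± 0.27 (adjusted p = 0.896). In fraction 5/6 the median of the members was -0.33 against -0.03 for all genes, with Homer1 alone above 0. The value furthest from 0 there was -1.47, again for Dlg2. Without the WT library that goes against its label, 0 members passed in that comparison or in the difference in enrichment (4 of 13276 and 0 of 13950 genes did), Shank3 in fraction 5/6 moved from -0.37 to 0.04, and the difference in enrichment of Shank2 moved to 0.12 ± 0.14 (adjusted p = 0.947).
In the low nuclease pellet no member passed either, against 0.0197% of 15240 genes. The value for Shank3 was 0.49 ± 0.17 (unadjusted p = 0.028, adjusted p = 0.907), opposite in sign to the standard pellet, a difference that was not tested, with 156, 121 and 100.4 CPM in WT and 175, 174 and 144 CPM in FMR1 KO.

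Between the preparations, Shank1, Shank3 and Homer1 differed most clearly, all lower in the standard pellet. MgCl2, nuclease and its temperature differ together between the preparations and cannot be told apart. In WT, 4 members were lower in the standard than in the low nuclease pellet and 3 higher, against 22.6% and 16.4% of the 15304 genes tested. In FMR1 KO, 4 were lower and none higher, against 15.2% and 13.5%. With library size alone all 9 were lower in FMR1 KO, among 14182 genes called of 15304 (92.7%). Shank1 was at 76.3, 89.0 and 80.6 CPM in the standard WT pellet and 319, 304 and 259.6 CPM in the low nuclease WT pellet. No standard library came near a low nuclease one, and the log2 difference was -1.30 ± 0.12 in WT (adjusted p = 0.000113) and -1.27 ± 0.12 in FMR1 KO (adjusted p = 0.000137). Shank3, at 37.7, 45.5 and 41.6 CPM against 156, 121 and 100.4 CPM in WT, differed by -1.04 ± 0.15 (adjusted p = 0.00122) and in FMR1 KO by -1.83 ± 0.16 (adjusted p = 9.37e-05). Homer1 differed by -0.46 ± 0.07 in WT (adjusted p = 0.0012) and -0.73 ± 0.07 in FMR1 KO (adjusted p = 0.000131). With any 1 library left out, these 3 genes passed in both genotypes.
Dlg4 at 97.2, 114 and 81.5 CPM against 211, 167 and 155 CPM differed by -0.32 ± 0.11 in WT (adjusted p = 0.0446), a call lost without WT standard pellet replicate 1 or 3, WT low nuclease pellet replicate 1 or 2 or FMR1 KO standard pellet replicate 1 or 3 (adjusted p 0.0543 to 0.129). Dlgap1 differed by -0.38 ± 0.11 in FMR1 KO (adjusted p = 0.024), a call lost without replicate 2 of either FMR1 KO pellet (0.0703 and 0.0932). Dlg2 (0.52), Dlg1 (0.50) and Dlg3 (0.35 ± 0.11, adjusted p = 0.0298) were above the typical gene in WT, reversed to -0.85, -0.87 and -1.0 with library size alone, where the median of all genes was -1.39. Each of these 3 calls was lost without WT standard pellet replicate 1 or 3 or WT low nuclease pellet replicate 1. Dlg1 was also lost without WT low nuclease replicate 2 or any FMR1 KO low nuclease pellet, Dlg2 without WT low nuclease replicate 2 or 3 or FMR1 KO low nuclease replicate 3, and Dlg3 without WT low nuclease replicate 3 (adjusted p 0.0515 to 0.127 over all of these).

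**Figure D4:**
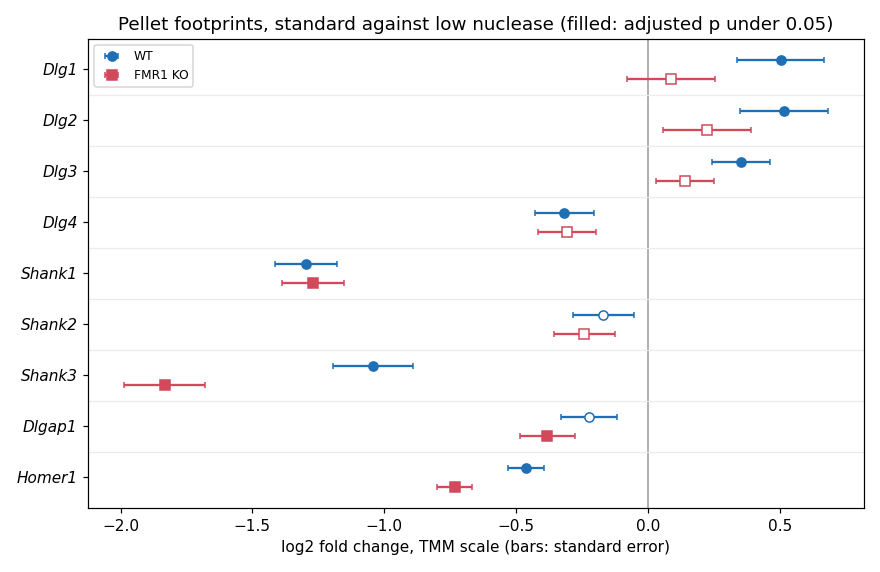
Log2 difference of pellet RPFs between the standard and the low nuclease preparation for each member in WT and FMR1 KO, scaled by TMM, with bars of 1 SE and filled symbols for adjusted p below 0.05. Shank1 (-1.30 and -1.27), Shank3 (-1.04 and -1.83) and Homer1 (-0.46 and -0.73) lie below 0 in both genotypes, while the positive values of Dlg1, Dlg2 and Dlg3 turn negative with library size alone.

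Peaks of RPF coverage show where ribosomes gather along the mRNA. The authors called them in each of the 12 standard RPF libraries, from 11389 to 36435 a library, and 125 lay on the members' transcripts that the count table names. Of these, 81 lay on Dlg3, 23 on Dlg4, 17 on Dlg2 and 4 on Shank2. Dlg1, Shank1, Shank3, Dlgap1 and Homer1 had none on that transcript. A further 9 lay on another Shank1 transcript, of which those of 5 libraries had middles from base 5511 to 5530.5 (deposited peak values 3 to 15), and 3 of these lay within 6 nt of each other.
Dlg3 had 15, 7 and 7 peaks in WT pellet libraries, 13, 4 and 9 in those of FMR1 KO, 11, 1 and 8 in WT fraction 5/6 and 1, 5 and 0 in FMR1 KO fraction 5/6. The 2 highest counts were in the libraries with the most peaks in all, WT pellet replicate 1 with 36435 and FMR1 KO pellet replicate 1 with 31883. The share of all peaks on member transcripts was 0.505 ± 0.205 per 1000 peaks for WT and 0.441 ± 0.0556 per 1000 peaks for FMR1 KO (pellet, SD, n = 3), a difference of -0.0642 (two-sided exact permutation test, p = 0.9, smallest possible 0.1). In the pellet of both genotypes it was 0.473 ± 0.139 and in fraction 5/6 0.335 ± 0.173 per 1000 peaks (n = 6 each), a difference of 0.138 (exact permutation p = 0.167), or 0.146 without replicate 3 of every group and 0.157 without the library that goes against its label (6 against 5 libraries, exact permutation p = 0.156).

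Members' peaks lay in 5′UTRs more often than peaks in general, through Dlg4 and Dlg3 alone. Such peaks made up 42 of the 125 (33.6%), against 4401 (1.59%) of the 276396 peaks on transcripts with a coding sequence. Another 83 (66.4%) lay in coding sequence against 97.7%, and none in a 3′UTR against 0.72%. All 42 belonged to Dlg4 (22) and Dlg3 (20), so these are 2 transcripts and not 42 independent cases. Counted by transcript, 2 of the 4 members' transcripts with any peak had a 5′UTR peak, against 1019 of 6223 over all transcripts. None of their middles lies in the coding sequence of any other transcript of the annotation. The named transcripts of Shank1 and Shank3 hold a 5′UTR of 0 and 9 bases, too short for a peak.
In Dlg4 the 5′UTR is 476 bases long and the uORF shown above spans bases 169 to 225, with 18 codons before its stop. A peak overlapped it in 12 of 12 libraries, 16 peaks in all, and in 11 of 11 without the library that goes against its label. In the WT pellet the first of these peaks from the 5′ end had its middle at base 187, 188.5 and 183.5 with deposited values of 26, 28 and 17, and for FMR1 KO it was at 175, 175.5 and 188 with values of 16, 12 and 14. In WT fraction 5/6 the middles were 161.5, 183.5 and 183.5 with values of 69, 24 and 12, and in FMR1 KO fraction 5/6 174.5, 161.5 and 186 with values of 11, 17 and 5. What these whole numbers measure is not given in the sources used here, some called peaks have a value of 0, and they were not compared between groups. A second Dlg4 uORF, bases 431 to 526, runs into the coding sequence and held no peak. The coding sequence of Dlg4, 2172 bases, held a single peak over the 12 libraries together, in WT pellet replicate 1.
Of 1019 transcripts with any 5′UTR peak, 30 had one in all 12 libraries, and Dlg4 is 1 of them.
In Dlg3, on the X chromosome, the uORF spans bases 128 to 232 of a 323-base 5′UTR, with 34 codons before its stop. Peaks overlapped it in 9 of 12 libraries (18 peaks), or in 8 of 11 without that library. The recurring middles were base 138 in 3 libraries, 173.8 in 4, 225 in 3 and 234 in 5, so both the start and the stop windows printed above held a peak in several libraries. Over all transcripts, 3144 of 4401 5′UTR peaks (71.4%) overlapped an ATG uORF, against 34 of 42 (81.0%) for the members, and 29.8% of the 5′UTR bases of the transcripts with such peaks lie in one. A peak counts as overlapping with any of its bases in the uORF, so a share of peaks and a share of single bases are unlike measures. The uORFs of Dlg1, Dlg2 and Dlgap1 held no peak. A uORF here is a match of letters and not shown to be translated.

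**Figure D5:**
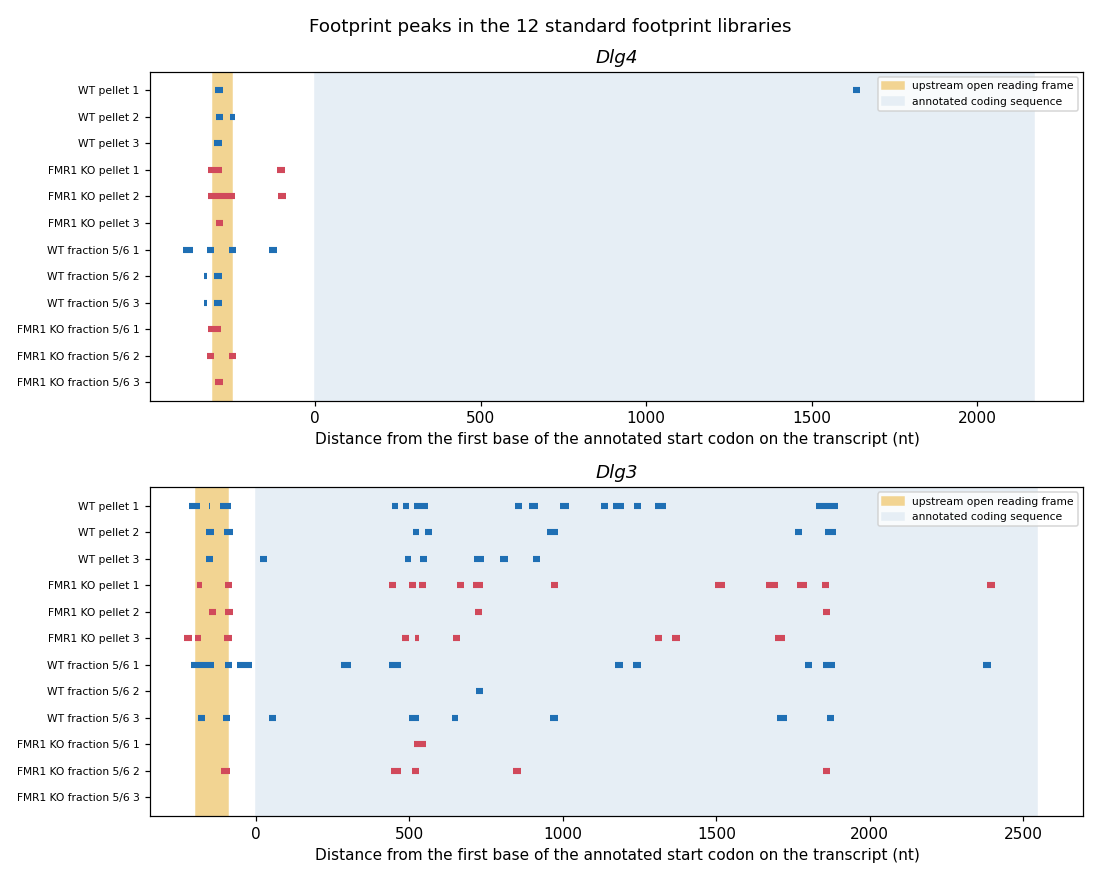
Extent of each RPF peak on the Dlg4 and Dlg3 transcripts, with 1 line for each of the 12 libraries, by distance in nt from the first base of the annotated start codon, with the uORF and the coding sequence shaded. Dlg4 has a peak at the uORF in 12 of 12 libraries and a single peak in the coding sequence, in WT pellet replicate 1, while Dlg3 peaks spread over 5′UTR and coding sequence.

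Some places held a peak in several libraries. Over the members, 5′UTR and coding sequence together, there were 77 positions, 25 of them in at least 2 libraries with middles within 6 nt, and 14 in at least 3. Of these 14, 7 lay in the 5′UTR (4 in Dlg3 and 3 in Dlg4) and 7 in coding sequence, all in Dlg3. In Shank2 1 position was shared by 2 libraries. Some shared positions rest on low deposited values, such as Dlg4 base 145.5 with 0 and 1. How many positions would recur from the density of peaks alone was not tested. The windows below hold such places in coding exons, shown as examples of where peaks recurred, with the codon at the middle in capitals (GENCODE M21, GRCm38, plus strand). The base from which the deposited positions count is not stated, so a window may be off by 1 base and the codon with it.
Dlg3, bases 1036 to 1064, chrX:100772492-100772520, codon 243, 4 libraries: cacctgagactatcATGgaggtcaacctg
Dlg3, bases 832 to 860, chrX:100772103-100772131, 3 libraries: ctcatgtccctgatGACcctggcatcttt
Shank1, other transcript, bases 5508 to 5536, chr7:44354371-44354399, 5 libraries by the looser grouping given above: ccctgcctcggaagCTActaccatgggag
The 17 peaks of Dlg2 all lay in its coding sequence, 8 of them in WT pellet replicate 1.

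Other genes of the postsynaptic density moved in both directions. Of 40 further scaffold, adaptor and signalling genes, all tested, 17 were higher and 10 lower in WT occupancy, against 31.7% and 34.8% of all genes (medians 0.28 for the list and -0.11 for all genes). In FMR1 KO 15 were higher and 11 lower, against 32.9% and 33.8% (medians 0.32 and -0.03). The falls with the largest size were in relatives of the members. Homer2 was at 142, 122 and 165 CPM in WT RNA-seq and 4.18, 3.93 and 2.85 CPM in the WT pellet, a log2 difference of -4.13 ± 0.26 (adjusted p = 1.32e-07). Dlgap3 was at 271, 334 and 357 CPM against 19.1, 23.6 and 15.3 CPM, a difference of -2.91 ± 0.16 (adjusted p = 6.95e-08). The rises with the largest size were in Baiap2, the adaptor IRSp53, with 1.89 ± 0.23 (adjusted p = 2.52e-05), and Cnksr2, a scaffold of Ras signalling, with 1.73 ± 0.15 (adjusted p = 1.89e-06). Cnksr2 was at 81.8, 109 and 112 CPM in WT RNA-seq and 142, 137 and 170.5 CPM in the WT pellet. In the low nuclease enrichment 10 of the 40 were higher and 4 lower in WT, against 13.5% and 12.9% of all genes, and 13 and 5 in FMR1 KO, against 12.3% and 16.4%. None of the 40 passed in the standard enrichment or between genotypes in RNA-seq, pellet or fraction 5/6. Without WT fraction 5/6 replicate 3, 11 were higher and 1 lower in the standard enrichment of WT, against 10.4% and 3.28% of all genes, and 10 and 1 in that of FMR1 KO, against 10.9% and 3.43%, and still none between genotypes in fraction 5/6.

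Over the 18 standard libraries, the genes whose log2 CPM followed the mean of the members most closely were Pkp4 (Pearson r = 0.998), Fbxo41 (0.996), Pip5k1c (0.996), Ddn (0.995) and Ssh1 (0.995), of 15883 genes compared. The points share the split of RNA-seq from RPF libraries. Among the members themselves, r with the mean of the others was 0.989 for Shank1, 0.978 for Dlg4, 0.970 for Shank3, 0.960 for Dlgap1, 0.939 for Shank2, 0.916 for Homer1 and 0.833 for Dlg1. Dlg2 at 0.155 and Dlg3 at 0.0856 did not follow the others.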

How the data were processed

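RPFs and RNA were sequenced from brain fractions of WT and FMR1 KO mice. The deposited count values are whole reads per gene, from reads that the authors trimmed (cutadapt 2.10), cleared of ribosomal and other non-coding RNA (Bowtie2 2.3.5), mapped to GRCm38 (STAR 2.7.8a), stripped of duplicates (Picard, SAMtools 1.19.2) and counted (featureCounts 2.2.0). The deposited peak lists give, for each peak that the authors called per library on Ensembl 102 transcripts, a signal value in whole numbers whose definition is not given in the sources used here. Columns of per-sample values that no sample explains numbered 0.

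Counts of protein-coding genes (biotypes of GENCODE M21) passed filterByExpr, were TMM-scaled and went into the quasi-likelihood test of edgeR 4.0.16 (limma 3.58.1, R 4.3.3), with Benjamini-Hochberg adjustment over all genes tested and a threshold of 0.05. Errors of log2 differences are standard errors derived from the F statistic. FMR1 KO against WT used the 2 groups compared. Other contrasts used a model over 4 groups. The test was checked on simulated data with 200 changed genes. Alternatives were library size alone, DESeq2 1.42.0, no filter, Cdk8 left out, other RNA-seq libraries, each replicate left out and a replicate block. The members and gene lists were chosen with earlier results of these data known. The named genes were all members, Fmr1, the list genes with the 2 largest rises and falls, and the 5 genes most like the members. Whether replicates are separate litters is not given in the sources used here beyond the pooled brains, so p-values measure the spread between these libraries. Strand use in counting is not given in the sources used here.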

Additional observations from a re-analysis of the deposited data

How the results depend on the processing

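Over the members' log2 differences, 2569 alternative values kept direction and call, 147 lost the call, 33 gained it, 141 changed sign without a call and 17 changed sign with a call before or after (11 called in the analysis reported, 6 called only after the change). The 17 were all with library size alone: against RNA-seq, Dlg1, Dlg2 and Dlg3 in WT occupancy (-1.31, -1.60, -0.83) and FMR1 KO occupancy (-1.83, -2.10, -1.0), in WT fraction 5/6 (-1.95, -0.40, -1.15), and Dlg1 and Dlg3 in FMR1 KO fraction 5/6 (-1.80, -0.79), and, standard against low nuclease pellet, Dlg1, Dlg2 and Dlg3 in WT (-0.87, -0.85, -1.0) and FMR1 KO (-1.51, -1.36, -1.41). That scaling also called 2 members in low nuclease enrichment of WT and 2 of FMR1 KO (1 higher and 1 lower each), in place of 4 each, with 4908 and 5776 of 15895 genes called, and 9, all lower, in place of 4 for the FMR1 KO pellet, standard against low, with 14182 of 15304 genes called. DESeq2 called 3 members (2 higher, 1 lower) in standard enrichment of FMR1 KO, in place of 0, with 1539 of 13664 genes called. The cause was not tested. With 1 library left out, or 1 replicate left out of every group, members called ranged from 7 to 9 (WT) and 7 to 8 (FMR1 KO) in occupancy, 4 to 7 and 6 to 6 in fraction 5/6 against RNA-seq, 0 to 4 and 0 to 4 in standard enrichment, 0 to 4 and 0 to 4 in low nuclease enrichment, 3 to 7 and 3 to 5 between preparations, and 0 to 0 between genotypes. In the same order, all genes called ranged from 52.3% to 67.9% and 53.8% to 68.2%, 47.9% to 62.4% and 43.1% to 62.7%, 0.0% to 13.7% and 0.0% to 14.4%, 0.311% to 27.5% and 3.32% to 27.7%, 10.1% to 40.3% and 7.43% to 35.3%, and up to 0.164%. Peak shares differed by -0.109 to 0.0234 per 1000 peaks between genotypes, above 0 without replicate 1, and by 0.118 to 0.157 between fractions (0.157 without WT fraction 5/6 replicate 3, chosen after seeing the data). Replicate numbers were not taken as pairs, since no label says that they mark a shared preparation and not every same-number pair correlated over 0.1 (10 of 18 in low nuclease pellet and fraction 5/6, up to 0.347, 8 of 18 in the standard ones, up to 0.278). With a replicate block 8 and 8 members were called in occupancy (65.4% and 65.0% of all genes), 6 and 6 in fraction 5/6 against RNA-seq (59.7% and 56.4%), 4 and 4 in low nuclease enrichment (31.5% and 31.6%), 6 and 4 between preparations (35.5% and 24.8%) and 0 elsewhere (up to 0.0613%), Dlg2 being the WT occupancy call that was lost. With Cdk8 left out the WT occupancy call of Dlg2 was lost (0.40, adjusted p = 0.063). An alternative chosen after seeing the data, low nuclease RNA-seq without the 3 libraries dominated by 10 genes, left 2 WT and 1 FMR1 KO library, the lone one being assumed to vary like the others, and called 9 and 7 members in occupancy (66.0% and 55.9% of all genes). With peaks matched within 3 nt or 12 nt, 22 or 28 positions recurred in place of 25. The shallowest fraction 5/6 library held 6765065 counts, and the part of depth in the enrichment calls was not tested.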
